A study of Homo sapiens with 6 samples.

Results

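Genes of retinoid metabolism and binding were followed in the human cell line MM.1S, which comes from multiple myeloma, a plasma cell cancer, after treatment with all-trans retinoic acid (ATRA). The set consists of RDH10, RDH11, DHRS3, CRABP2, LRAT and STRA6, chosen by symbol, and all 6 were found among the 14884 genes measured. Total RNA was hybridised to 6 arrays. All cells, controls included, had first received Cfz, a short name of the proteasome inhibitor carfilzomib, as a pulse of 1 h. They were kept after that for 12 h in the solvent DMSO (3 arrays) or in 10 µM ATRA (3 arrays). Cells without Cfz were not analysed here. No label ties the arrays of 1 group to different cultures. The p-values therefore measure the spread among samples that may be technical repeats.

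Retinol enters cells partly through STRA6, a membrane receptor for retinol bound to its plasma carrier, and is stored as retinyl ester by LRAT, an acyltransferase. The way to retinoic acid starts with the oxidation of retinol to retinaldehyde, a slow and reversible step. RDH10 carries out the oxidation, while DHRS3 and RDH11 reduce retinaldehyde back to retinol. Aldehyde dehydrogenases then make retinoic acid, which CRABP2 carries to the retinoic acid receptors in the nucleus. RDH10, RDH11 and DHRS3 belong to the short-chain dehydrogenase family, and RDH10 and DHRS3 are known to bind each other and to raise each other's activity. In many other cell types DHRS3, CRABP2, LRAT and STRA6 respond to retinoic acid themselves. Of the plasma cell markers, 6 of the 9 measured (SDC1, CD38, IRF4, XBP1, MZB1 and SLAMF7) lay above background while POU2AF1, FCRL5 and CD27 did not. Markers of other blood and stromal cells were mostly at background, 6 of 7 for T and NK cells (TRAT1 was bright), 6 of 8 for myeloid cells (CD68 was above the limit in both groups and S100A9 with ATRA alone) and 5 of 5 for fibroblasts and endothelium.

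RefSeq promoter windows (GRCh38.p14), cut here to the 250 bases before the gene start, were found for 5 of the 6 genes, and RDH10 had no entry. They were searched on both strands for the hexamer AGGTCA, which retinoic acid receptors bind in pairs, for its variant AGTTCA, its variant GGGTCA and its variant GGTTCA, and for direct repeats of any of them with 1, 2 or 5 bases between. Of the 11 windows of the 5 genes, 5 held a hexamer and 0 a direct repeat. Among all 35116 windows, 33.8% held a hexamer and 0.202% such a repeat. No match says only that these letters are not in these windows. The windows of RDH11, which had signal on every array, and of CRABP2 and STRA6, whose signal stayed at background, are shown on the gene's strand, with the hexamers in capitals (the letters TGACCT stand for the hexamer AGGTCA on the other strand). They lie on the minus strand at chr14:67695765-67696014, chr1:156705785-156706034 and chr15:74212260-74212509, the last being the first of 5 windows of STRA6.
RDH11: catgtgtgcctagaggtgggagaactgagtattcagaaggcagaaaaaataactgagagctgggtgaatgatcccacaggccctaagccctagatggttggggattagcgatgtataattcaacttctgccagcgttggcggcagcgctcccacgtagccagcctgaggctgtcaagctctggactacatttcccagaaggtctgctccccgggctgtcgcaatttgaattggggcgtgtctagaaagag
CRABP2: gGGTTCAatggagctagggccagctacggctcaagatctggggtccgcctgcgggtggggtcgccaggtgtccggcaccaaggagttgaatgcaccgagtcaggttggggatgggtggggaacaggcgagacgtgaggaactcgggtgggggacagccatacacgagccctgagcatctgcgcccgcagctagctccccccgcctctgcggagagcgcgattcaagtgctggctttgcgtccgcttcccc
STRA6: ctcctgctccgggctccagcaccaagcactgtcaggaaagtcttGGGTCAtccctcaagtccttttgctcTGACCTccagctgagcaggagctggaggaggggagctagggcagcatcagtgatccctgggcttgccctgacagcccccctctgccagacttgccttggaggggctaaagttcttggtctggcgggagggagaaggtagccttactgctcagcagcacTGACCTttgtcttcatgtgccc
The RDH11 window held 0 hexamers, that of CRABP2 had GGTTCA near its far end, and that of STRA6 held 3. CpG dinucleotides, dense in the promoters of many widely expressed genes, were counted in the windows. As RDH10 had none, RDH11 was the only gene with signal here, and the counts cannot show a relation to signal. RDH11 had 8 CpG in its window, against a median of 22 (quartiles 15 and 28) for genes above background. For genes at background the median was 12 (quartiles 4 and 23). CRABP2 (18) lay between those quartiles and LRAT (24) just above them. Those medians and quartiles take the first window of a gene. DHRS3 had 26 in its first window but 10 and 3 in the others, and the 5 windows of STRA6 had 2 to 8.

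The 6 genes fell into a bright pair and a dim group of 4. A gene was taken as at background in a group of arrays where its mean log2 level was at or under the 95th percentile of 56 reference genes that a plasma cell line should not express, such as hepatocyte and germ cell genes. That limit was a log2 intensity of 5.09 with DMSO and 5.22 with ATRA. By this definition a few reference genes must lie above it, and in both groups these were DES, PRM2 and ZP3. Another, SAG, under the limit in both groups, had a log2 difference of -0.59 between ATRA and DMSO (limma, adjusted p = 0.0173). With 1 array left out in turn, SAG lost its call in 5 of 6 limma fits (highest adjusted p 0.075). The limit rests on 56 genes and is a rough one. RDH10 and RDH11 lay above every reference gene in both groups. DHRS3, STRA6, CRABP2 and LRAT lay under the limit in both, and the 90th percentile (4.38 and 4.46) gave the same division. Of the 56 reference genes, 16 were brighter than DHRS3 with DMSO and 15 with ATRA, 19 and 18 were brighter than STRA6, 26 and 32 than CRABP2, and 54 and 52 than LRAT. Probe sets differ in how they respond, so a level at background gives no amount of transcript and does not show that a gene is silent.

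**Figure D1:**
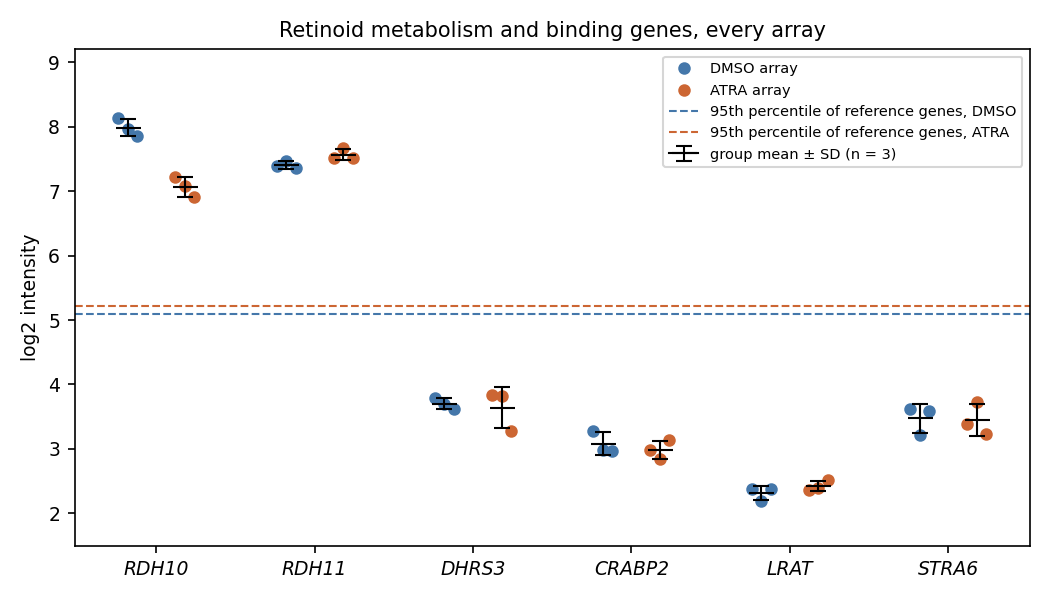
Log2 intensity of the 6 genes on each of the 3 DMSO and 3 ATRA arrays (points), with group mean and SD (bars) and the background limits of both groups (dashed lines). RDH10 is lower on all ATRA arrays than on any DMSO array, RDH11 differs little, and the other 4 genes lie under both limits.

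RDH10, the retinol dehydrogenase, fell with ATRA. Its linear intensity was 279.6, 250.2 and 232 on the DMSO arrays and 149, 135 and 120 on the ATRA arrays. The groups did not overlap, as was the case in either direction for 24.7% of all genes and 42.8% of genes above background. It follows that each of the 9 pairings of an ATRA with a DMSO array gave a lower value with ATRA. Those log2 differences lay between -0.64 and -1.22. The mean fell from 254 ± 23.8 to 134 ± 14.7 (SD, n = 3), a 1.89-fold decrease (ratio of geometric means) with a 95% interval of 1.56-fold to 2.30-fold. On the log2 scale the change was -0.92 (SE 0.12; limma, adjusted p = 0.00903 over all 14884 genes). By size it was the 54th of 308 decreases that passed an adjusted p of 0.05. In bulk RNA, fewer cells that express a gene and less RNA per cell cannot be told apart. Of all genes tested 3.80% passed, 2.07% as decreases and 1.73% as increases, and of the 5868 genes above background 8.33% passed.

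RDH11, the retinaldehyde reductase of the endoplasmic reticulum, had a small difference in the other direction that did not pass. Its linear intensity was 168, 177 and 163 on the DMSO arrays and 183, 203 and 183 on the ATRA arrays. The ATRA values all lay above the DMSO values, as was the case in either direction for 24.7% of all genes and 42.8% of genes above background, so this separation is common on these arrays. The means were 169 ± 7.12 and 189 ± 11.5 (SD, n = 3), a log2 difference of 0.16 with a 95% interval from -0.06 to 0.38 (limma, adjusted p = 0.433). That interval holds no change, and its upper end is a 1.30-fold increase. The responses of RDH10 and RDH11 were also set against each other within each array. The log2 ratio of RDH10 to RDH11 was 0.74, 0.50 and 0.51 with DMSO and -0.30, -0.59 and -0.61 with ATRA, a change of -1.08. The exact two-sided permutation test gave p = 0.1, the smallest that 3 arrays against 3 allow. As RDH10 and RDH11 each separated the groups, in opposite directions, this p was fixed beforehand and adds no evidence.

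DHRS3, the retinaldehyde reductase that partners RDH10, gave 13.9, 12.9 and 12.3 in linear intensity with DMSO and 14.2, 14.1 and 9.67 with ATRA. The third ATRA array was the lowest of all 6 and the first the highest, and the groups overlapped. The log2 difference was -0.06, with a 95% interval from -0.44 to 0.32 (limma, adjusted p = 0.886), and became 0.12 without the third ATRA array.

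CRABP2, the carrier of retinoic acid, gave 9.73, 7.94 and 7.85 with DMSO and 7.88, 7.20 and 8.78 with ATRA in linear intensity. The first DMSO array was the highest and the rest were mixed. The log2 difference was -0.09, with an interval from -0.39 to 0.20 (limma, adjusted p = 0.762), and 0.0063 without the first DMSO array.

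STRA6, the retinol uptake receptor, gave 12.3, 9.31 and 12.0 with DMSO and 10.4, 13.3 and 9.45 with ATRA. Both the highest and the second lowest value came from ATRA arrays. The log2 difference was -0.03, with an interval from -0.41 to 0.36 (limma, adjusted p = 0.957), and turned to between 0.0085 and 0.079 when any 1 of 4 arrays was left out.

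LRAT, which makes retinyl esters, was the dimmest of the set, at 5.21, 4.57 and 5.21 with DMSO and 5.14, 5.26 and 5.70 with ATRA. The highest value came from an ATRA array and the lowest from a DMSO array, and the groups overlapped. The log2 difference was 0.10, with an interval from -0.13 to 0.34 (limma, adjusted p = 0.653). Across the 4 dim genes the intervals ended between 0.20 and 0.36 on the log2 scale, so a doubling of the measured signal lay outside each of them. How the signal of these probe sets relates to transcript at such levels is not known from these arrays. Of the 9016 genes at background in both groups, 0.843% passed the threshold.

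In the rest of the retinoid pathway 0 of 20 measured genes passed, which is near the share over all genes (3.80%, and 0.843% of those at background) and so is no result about the pathway. The pathway was listed as 68 genes in all, of which 26 were measured, the set of 6 included. The 20 others had a median log2 difference of -0.10, against -0.01 for all genes, and ranged from -0.52 to 0.26. In limma 2 of them had an unadjusted p under 0.05, 1 of these above background, and 0 passed with eBayes with trend and robust. The share of all genes under that unadjusted p is not given here, so the count of 2 is no result about the pathway. Only 5 of the 20 were above background. Among the oxidoreductases these were RDH13, a mitochondrial relative of RDH11, and DHRS4 and DHRS7. RDH13 gave log2 levels of 5.49, 4.96 and 5.51 with DMSO and 4.74, 4.57 and 5.09 with ATRA, so ATRA minus DMSO was -0.52, which missed the threshold (limma, adjusted p = 0.218). It sat close to the background limit, above it with DMSO and under it with ATRA. DHRS4 (-0.05, adjusted p = 0.928 by limma) and DHRS7 (-0.11, adjusted p = 0.701) showed smaller differences.

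Among genes of retinyl esters, where 8 of 11 were measured, DGAT1 and PNPLA4 were above background. DGAT1, which can esterify retinol beside its main work on triglycerides, gave log2 levels of 8.51 ± 0.071 with DMSO and 8.36 ± 0.045 with ATRA (SD, n = 3), a difference of -0.15 (limma, adjusted p = 0.448). PNPLA4, a lipase that acts on retinyl esters, differed by 0.10 (adjusted p = 0.832). Of 14 genes for uptake and carriers 6 were measured, all at background, and the only measured gene of retinaldehyde oxidation, AOX1, was there too. RDH12, the neighbour of RDH11 on the chromosome and a photoreceptor gene, was at background as well, with log2 levels of 2.64 and 2.47. The retinoic acid receptors, the retinoid X receptors and the CYP26 enzymes that break down retinoic acid were not analysed here.

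**Figure D2:**
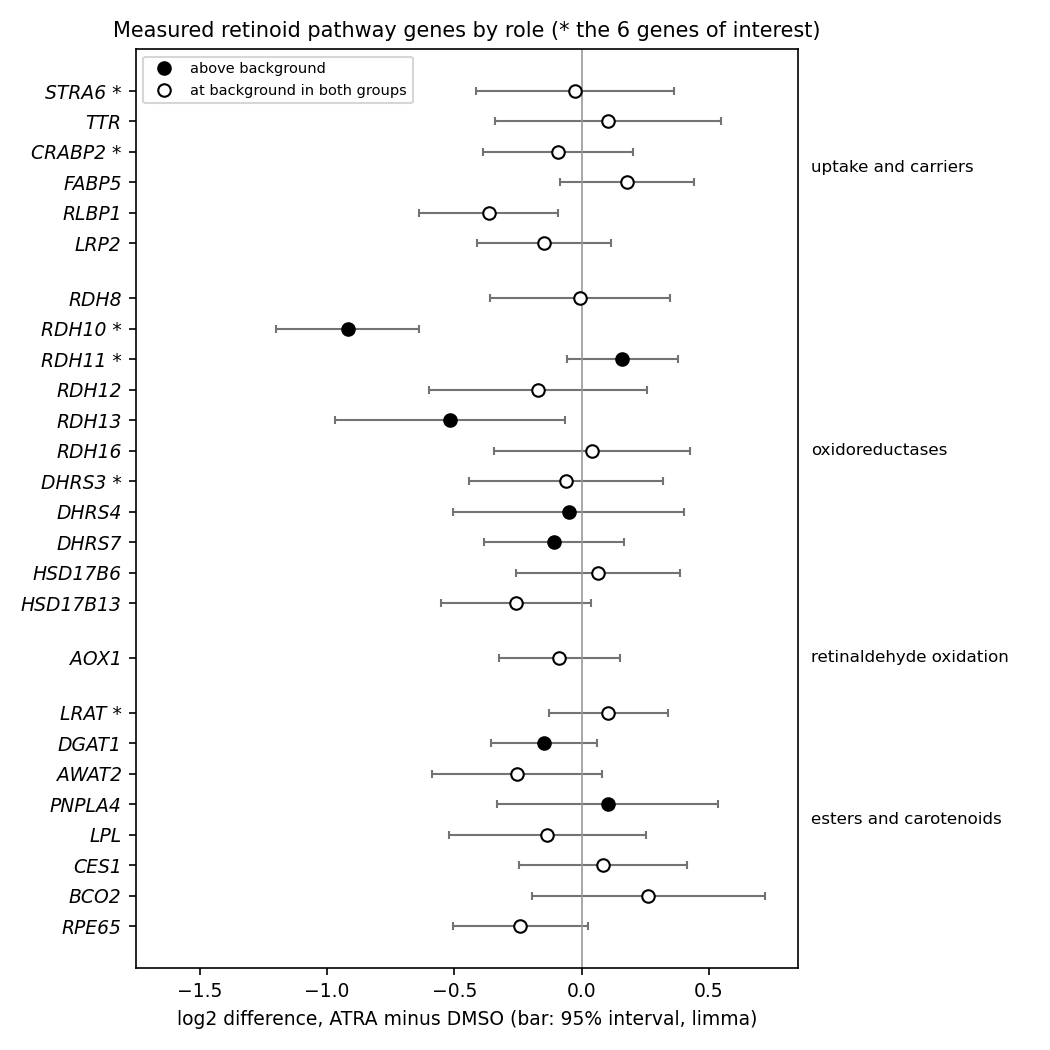
Log2 difference between ATRA and DMSO for the 26 measured retinoid pathway genes by role, with 95% intervals from limma (bars), for genes above background in at least 1 group (filled) and at background in both (open). RDH10 stands at -0.92 and the others lie between -0.52 and 0.26.

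Genes that retinoic acid is known to change in other cell types were also listed. Of 36 listed genes 19 were measured, and 4 rose, 0 fell and 15 did not pass, with a median log2 difference of 0.03. The 4 calls are 21.1% of the measured genes, next to 3.80% of all genes. Over all genes, 8.33% of those above background passed and 0.843% of those at background, so calls were more frequent among brighter genes in general. The 4 that rose, CD38, PLAAT4, NRIP1 and ICAM1, were the 4 above background, and they were so with DMSO already. The list was chosen with earlier results of these data known. Its counts are no independent evidence of its direction or of a division by signal. DHRS3, CRABP2, LRAT and STRA6 are 4 of its 15 genes at background. PLAAT4, a small phospholipase of the protein family named after LRAT, gave log2 levels of 5.71, 5.30 and 5.49 with DMSO and 7.47, 7.20 and 7.34 with ATRA. Its change was 1.84 (SE 0.13; limma, adjusted p = 0.000751). The difference of 0.10 for LRAT cannot be compared with it, since LRAT lay at background in both groups. CD38, a surface enzyme long known as an ATRA-induced gene, rose by 1.95 (adjusted p = 0.000145) in the same cells. NRIP1, a corepressor of nuclear receptors, rose by 0.81 (adjusted p = 0.0190), and ICAM1, an adhesion molecule, by 0.63 (adjusted p = 0.0401). When each array was left out in turn, NRIP1 lost its call in 4 of 6 fits (highest adjusted p 0.0776) and ICAM1 in all 6 (highest 0.123). NRIP1 has 2 probe sets, and the second was dim, at a mean log2 level of 2.63 against 6.10. With both averaged the change of NRIP1 was 0.38 (limma, adjusted p = 0.171), which left 3 calls in the list. With every probe set tested by itself in limma, NRIP1 (adjusted p = 0.0732) and ICAM1 (adjusted p = 0.127) missed the threshold.

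In the wider short-chain dehydrogenase family, 46 of 61 listed genes were measured and 26 were above background. In limma 2 rose and 2 fell. That is 8.70% of the measured genes, next to 3.80% of all genes. Above background 3 of the 26 passed, or 11.5%, next to 8.33% of all genes above background. The 2 shares above background are close, so the counts are no result about the family. The median log2 difference was -0.07. RDH10 had the largest decrease of the 46. CBR3, a carbonyl reductase, gave log2 levels of 6.79, 6.79 and 6.29 with DMSO and 5.65, 5.94 and 5.87 with ATRA, a log2 change of -0.80 (adjusted p = 0.0423) that lost its call in 5 of 6 fits on leaving out an array (highest adjusted p 0.137) and with every probe set by itself (adjusted p = 0.127). FAR2, which reduces fatty acyl-CoA to fatty alcohol, rose by 0.89 (adjusted p = 0.00600), from 4.88, 5.16 and 4.97 to 5.90, 5.94 and 5.83. Its DMSO mean lay under the limit, so the size of this rise is uncertain. FAR1, its relative with the same activity, was at 9.07 ± 0.069 and 8.73 ± 0.073 (SD, n = 3), and its difference of -0.34 missed the threshold (adjusted p = 0.103). HSD11B1, which regenerates active glucocorticoid, rose by 1.26 (adjusted p = 0.00219), from 3.42, 3.47 and 3.17 to 4.57, 4.54 and 4.71. Both its means lay under the background limits, so its size is likewise uncertain. The brightest members above background that did not pass were DCXR (-0.07), FAR1 and HSDL2 (0.20).

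**Figure D3:**
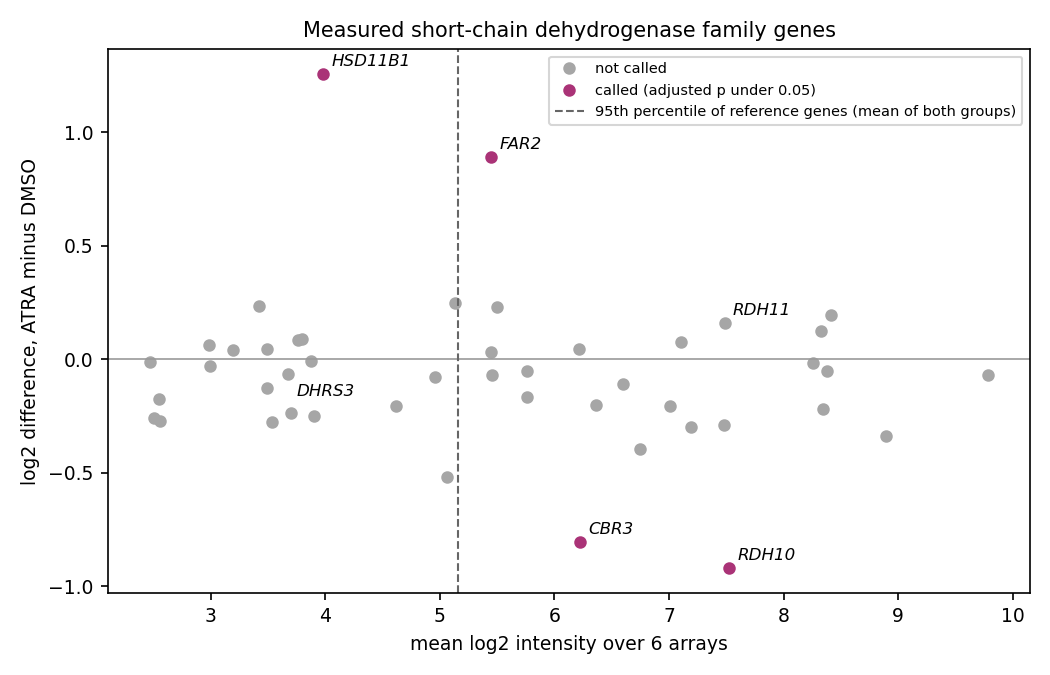
Log2 difference between ATRA and DMSO against mean log2 intensity over 6 arrays for the 46 measured short-chain dehydrogenase genes, with called genes coloured and the background limit, averaged over both groups, as a dashed line. RDH10 (-0.92) and CBR3 (-0.80) are the lowest points and HSD11B1 (1.26) and FAR2 (0.89) the highest.

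To place RDH10 and RDH11 among other genes, the log2 values of each gene were centred on its mean of 6 arrays, and the genes with the smallest root mean square difference were listed from 5520 protein-coding genes above background. Those nearest to RDH10 were CENPX (0.074), CRLF2 (0.075), CDT1 (0.090), LPCAT1 (0.10) and E2F7 (0.11). CENPX is a centromere and DNA repair protein, CRLF2 a cytokine receptor chain, CDT1 a replication licensing factor, LPCAT1 a phospholipid acyltransferase and E2F7 a cell cycle repressor. Their log2 changes lay between -1.03 for CRLF2 and -0.81 for CENPX. The 5 nearest to RDH11 were EID1, NECAP2, MRPL24, RNF114 and SMIM19, at 0.021 to 0.032, with changes of 0.14 to 0.21 that did not pass (limma, adjusted p of 0.319 or more). These lists rest on 6 arrays that share 1 treatment contrast and describe likeness in the values alone.

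**Figure D4:**
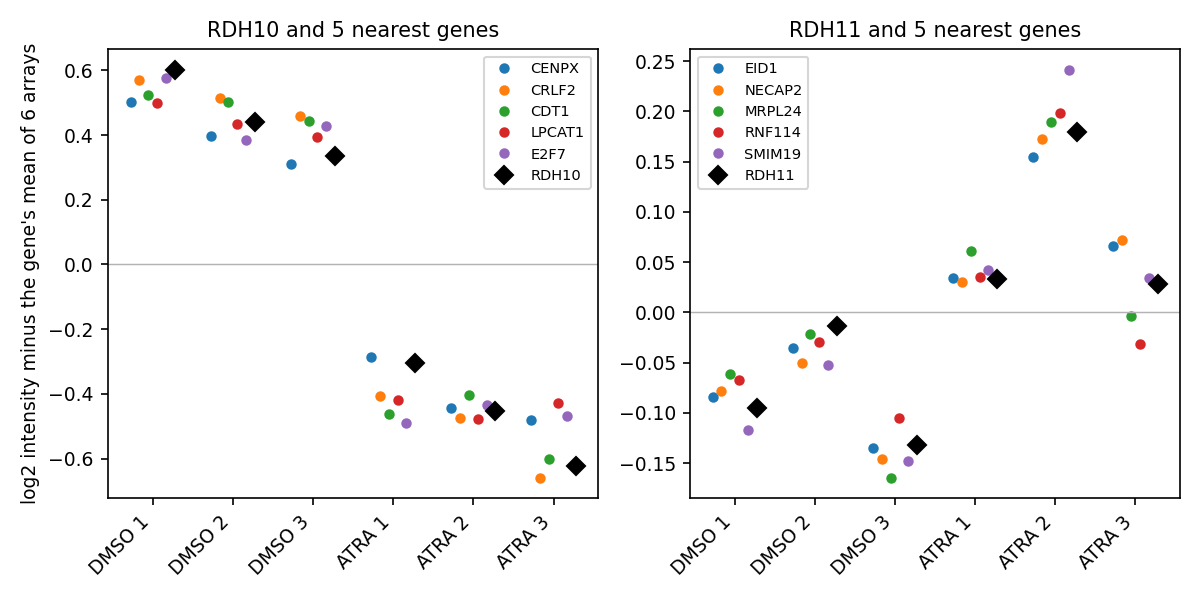
Log2 intensity minus each gene's mean of 6 arrays, per array, for RDH10 (left, diamonds) and RDH11 (right, diamonds) with the 5 genes nearest to each (circles). The RDH10 group separates DMSO from ATRA arrays by about the same amount, between -1.03 and -0.81 on the log2 scale, while the vertical axis for RDH11 covers a far smaller range.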

How the data were processed

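Total RNA of 6 MM.1S samples was hybridised to 1-colour arrays after biotin labelling, per the labels. The deposited intensities had been processed by the authors. RMA and limma stand in the submitters' processing notes without versions. The genome build they used is not given in the sources used here, and RefSeq tables served only for names, neighbours and promoter sequences. The values are linear, since they reach 14038. Log2 was taken with no pseudocount.

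Of 53617 probe sets, 16098 (30.0%) had 1 symbol in the platform annotation, 0 had several, and 37519 are unnamed here. All 16098 matched the RefSeq gene table by Entrez ID, with 0 symbols changed. Each of the 14884 symbols was represented by the probe set with the highest mean over 6 arrays. The 6 genes have 1 probe set each, and 0 of them share values with another. NRIP1 has 2, with changes of 0.81 and -0.04, at mean log2 levels of 6.10 and 2.63. The second lay far under the background limits, so it gives little information on the change. Over all 53617 probe sets, the median linear intensity (not log2) per array lay between 9.40 and 9.76. The number of arrays limits the precision.

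ATRA was compared with DMSO in R 4.3.3 by limma 3.58.1 (lmFit, then eBayes, two-sided, without block or filter). P-values were adjusted over all genes (Benjamini-Hochberg) and called under 0.05. On simulated data for this comparison (14884 genes), 16.4% of genes changed by 0.5 on the log2 scale, 67.2% of those changed by 1 and 98.5% of those changed by 2 were recovered, and 5 of 126 calls were false. In that simulation 200 genes were changed, against 565 calls in the data, and noise was independent and normal for each gene. Its rates therefore need not hold for the real arrays. The 56 reference genes for background include 1 olfactory receptor, and TTR and RPE65 are also on the pathway list.

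Members and lists were chosen with earlier results of these data known. Named were the 6 genes, in each list the 4 called members that changed most and up to 3 bright ones that did not pass, and the 5 nearest genes of each gene above background. RDH12, AOX1 and the markers of plasma cells and other cell types were named for their role. RDH13 was named outside this rule, to complete the 5 other pathway genes above background. Replicate numbers are shared by the groups, but deviations of same-numbered arrays correlated at only 0.0087 to 0.017, so they were not treated as pairs. Alternatives were the replicate block, 1 array left out, the dimmer 50% of genes removed, a pseudocount of 16, a common median, array weights, quantile normalization, eBayes with trend and robust, averaged probe sets of a gene and every probe set by itself. Protein-coding genes alone were added after seeing the data.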

Additional observations from a re-analysis of the deposited data

How the results depend on the processing

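RDH10 kept its direction and its call under all 16 alternatives run, with a log2 change of -0.997 to -0.839 and adjusted p of 8.61e-05 to 0.0439. RDH11 stayed positive and not called in its 16 alternatives (0.11 to 0.23). LRAT stayed positive and not called in 15. With 1 array left out, DHRS3 ranged from -0.16 to 0.12, CRABP2 from -0.17 to 0.0063 and STRA6 from -0.17 to 0.079, so these genes have no stable sign, and they gave no value once the dimmer 50% of genes were removed. The replicate block, added because the labels number the replicates alike, gave 200 called genes instead of 565 and an adjusted p of 0.0281 for RDH10. Every array's deviations correlated best with those of its own number, at 0.0087 to 0.017, which is a hint from the data and not from the design. CBR3 (adjusted p = 0.104) and ICAM1 (adjusted p = 0.116) lost their call with the block. The count of called genes was 207 to 317 with 1 array left out, where fewer samples were fitted, 1143 without the dimmer 50%, where fewer genes were tested, and 359 with every probe set by itself, where more were tested. It was 1327 with eBayes with trend and robust and 1218 with the pseudocount of 16, and the cause was not tested. In the short-chain dehydrogenase list 7 genes were called with trend and robust instead of 4. Olfactory receptor genes alone gave no background limit, since 1 was named. The dimness of 4 of the 6 genes limits what can be said of them.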
